A study of Mus musculus with 10 samples.

Results

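Retinoic acid, the active form of vitamin A, acts through nuclear receptors, and the genes considered here are the receptors *Rara*, *Rarb*, *Rarg*, *Rxra*, and *Rxrb* together with *Hic1*, *Dhrs3*, *Cyp26b1*, and *Crabp2*. Their accessibility was followed in group 2 innate lymphoid cells (ILC2s) of 5 mouse tissues. Of the 50039 open chromatin regions in the table of counts, 76 were assigned to these 9 genes, because the centre of the region lay inside 1 of them or because its nearest transcription start site (TSS) in RefSeq was at 1 of them. The rule used positions alone and no count, but the genes were chosen with earlier results of these data known. *Dhrs3* held 23 regions, *Rara* 16, *Rxra* 10, *Hic1* 8, *Cyp26b1* 7, *Rarg* 5, *Rarb* 4, *Crabp2* 2, and *Rxrb* 1. Each of the 76 had its nearest TSS at a listed gene, and 37 lay inside a listed gene. Assignment by distance does not tell which promoter a region regulates. By class, 13 regions were promoters (centre at most 1000 bp before or 100 bp past a TSS), 50 lay inside some gene, and 13 were intergenic. A region is named below by its gene and the distance of its centre from the nearest TSS of that gene, with a minus sign for upstream.

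ATAC-seq was done on male C57BL/6 mice aged 6 weeks, with 2 libraries for each of 5 tissues, namely small intestine (SI), large intestine (LI), pancreas, lung, and bone marrow (BM). Each library came from 50000 sorted cells, pooled over 16 mice for BM, lung, and pancreas and over 10 mice for LI and SI. Lineage-negative cells were gated by ST2 and CD25 in BM, by CD45, CD127, CD25, and ST2 in the pancreas, lung, and LI, and by CD45, CD127, Thy1, and KLRG1 in SI, and BM cells went through a different sorter. Gate, sorter, pool size, and tissue digestion therefore cannot be told apart from tissue, except that LI, lung, and pancreas share a gate. All tissues but BM shared a sorter. Pool size split LI and SI from the other tissues, so LI still differed from lung and pancreas in pool size and tissue digestion. With 2 libraries per tissue, p-values set a difference against a spread between pools that was estimated over all 5 tissues, drawing also on other regions. A smaller share of cells with an open region and a weaker opening in each cell cannot be told apart.

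All-trans retinoic acid binds RARα, RARβ, or RARγ, each of which pairs with an RXR on direct repeats of the half-site AGGTCA or close variants of it. Without ligand the pair holds corepressors, and with ligand it recruits coactivators. The intestine is rich in vitamin A, and dendritic cells there make retinoic acid that induces gut-homing receptors on lymphocytes. *Hic1* encodes a zinc finger repressor that is induced by retinoic acid in intestinal lymphocytes. DHRS3 reduces retinaldehyde to retinol, CYP26B1 degrades retinoic acid, and CRABP2 carries retinoic acid to the nucleus. *Rarb* and *Dhrs3* are classical targets of the receptors.

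The sequences below are shown for the region with the largest intestinal difference near *Rarg*, the intergenic region with the largest near *Rara*, the leading region near *Hic1*, a *Hic1* region with stacked direct repeats, the leading SI region near *Dhrs3*, and the TSS-proximal bases of *Rarb*. They are the central 300 bases of each region, or for *Rarb* the 100 bases before the TSS, read from the RefSeq GRCm38 genome, which is the assembly of mm10. Capitals mark the half-site AGGTCA, its variant AGTTCA, and direct repeats, in which GGGTCA as well as GGTTCA was allowed, with the reverse complement in capitals where a match is on the opposite strand. A match describes the letters and is not evidence of binding, and RORα and other nuclear receptors recognise the same half-site.
Rarg -5.7 kb (chr15:102263100-102263399, + strand): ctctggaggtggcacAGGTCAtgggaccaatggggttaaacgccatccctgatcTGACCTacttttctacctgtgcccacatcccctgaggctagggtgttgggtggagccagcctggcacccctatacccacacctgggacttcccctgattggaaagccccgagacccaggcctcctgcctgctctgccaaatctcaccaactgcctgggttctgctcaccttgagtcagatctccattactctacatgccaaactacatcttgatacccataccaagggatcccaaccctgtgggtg
Rara -4.3 kb (chr11:98933251-98933550, + strand): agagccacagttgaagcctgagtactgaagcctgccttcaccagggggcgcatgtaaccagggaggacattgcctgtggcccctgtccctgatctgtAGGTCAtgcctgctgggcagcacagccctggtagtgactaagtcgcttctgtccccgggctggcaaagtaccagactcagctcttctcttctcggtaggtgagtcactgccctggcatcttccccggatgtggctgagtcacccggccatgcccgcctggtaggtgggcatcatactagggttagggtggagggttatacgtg
Hic1 +13.7 kb (chr11:75154261-75154560, + strand): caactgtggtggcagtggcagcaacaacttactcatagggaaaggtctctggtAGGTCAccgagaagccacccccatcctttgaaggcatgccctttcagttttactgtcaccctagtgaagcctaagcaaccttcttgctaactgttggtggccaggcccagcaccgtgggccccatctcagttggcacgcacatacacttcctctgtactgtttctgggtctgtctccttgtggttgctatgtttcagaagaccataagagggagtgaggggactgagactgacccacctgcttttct
Hic1 +31.0 kb (chr11:75137023-75137322, + strand): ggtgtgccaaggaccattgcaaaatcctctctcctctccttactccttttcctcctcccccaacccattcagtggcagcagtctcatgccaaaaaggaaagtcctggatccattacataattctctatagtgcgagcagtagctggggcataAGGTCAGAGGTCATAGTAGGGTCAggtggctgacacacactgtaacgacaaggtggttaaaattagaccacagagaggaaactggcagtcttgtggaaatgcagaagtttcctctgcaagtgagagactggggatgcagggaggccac
Dhrs3 +4.9 kb (chr4:144897908-144898207, + strand): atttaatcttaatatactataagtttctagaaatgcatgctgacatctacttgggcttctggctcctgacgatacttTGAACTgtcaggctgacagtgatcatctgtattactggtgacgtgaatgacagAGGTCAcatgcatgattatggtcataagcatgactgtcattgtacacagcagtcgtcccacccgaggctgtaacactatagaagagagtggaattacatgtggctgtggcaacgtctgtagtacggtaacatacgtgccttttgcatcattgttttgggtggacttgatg
Rarb -71 bp (chr14:16575477-16575576, - strand): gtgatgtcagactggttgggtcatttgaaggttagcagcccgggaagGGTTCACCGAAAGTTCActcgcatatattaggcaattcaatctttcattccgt

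Single binding motifs occurred in these regions at about the share of the whole table. AGGTCA occurred in the central 300 bases of 14 of the 76 regions (18.4%) against 18.0% of all 50039, and AGTTCA in 10 (13.2%) against 15.0%, on either strand. GATA sites (AGATAA or TGATAA), the sites of the ILC2 regulator GATA3, occurred in 18 regions (23.7%) against 25.9%. AP-1 sites (TGANTCA) occurred in 16 (21.1%) against 18.3%. Direct repeats were rare everywhere. A repeat with a spacer of 5 bases (DR5) was present in 3 regions (3.95%) against 105 of all regions (0.210%), and a repeat with a spacer of 1 base (DR1) in 1 region (1.32%) against 98 (0.196%). A spacer of 2 bases was found in 0 of the 76 and in 92 of all regions (0.184%). The genes were chosen by name as receptors and retinoid-related genes, with earlier results of these data known. The comparison is a description without a test. The 3 DR5 matches, with the half-sites in capitals and the spacer in lower case, are given 5′ to 3′ on the strand of the match.
Hic1 +31.0 kb (chr11:75137182-75137198, + strand): AGGTCAtagtaGGGTCA
Rarb -71 bp (chr14:16575513-16575529, - strand): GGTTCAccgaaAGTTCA
Dhrs3 +133.6 kb (chr4:145026770-145026786, - strand): AGTTCAtaactGGGTCA
In the *Hic1* region the first half-site of the DR5 is also the second of a DR1 (AGGTCAgAGGTCA), so 3 half-sites follow each other.

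Library totals lay between 10282987 reads at regions (pancreas replicate 2) and 32797872 (lung replicate 2). Over the 10 libraries, a region of the listed genes held 277 (*Cyp26b1* -140.5 kb) to 21088 reads (*Rara* +2.5 kb). Replicates correlated at Spearman 0.927 (SI) to 0.975 (lung) over all regions but differed by more than counting noise, with a chi-square per degree of freedom of 12.8 (lung) to 56 (LI). Values below are counts divided by the TMM-scaled library total (CPM), in the order replicate 1 and replicate 2. Promoters of all 9 ILC2 markers tested, among them *Gata3*, *Il1rl1*, and *Il7r*, were in the table, with a summed level of 268 to 357 CPM in the intestinal and 333 to 414 CPM in the other libraries. Single markers differed more than their sum. *Il1rl1*, which encodes the ST2 of the gate, held 4.53 and 3.55 CPM in SI and 10.4 to 41.9 CPM elsewhere, and *Klrg1* held 11.2 and 11.5 CPM in BM and 35.2 to 75.4 CPM elsewhere. Of 33 markers of 8 other cell types, 29 had no promoter region, including *Cd3d*, *Trac*, *Csf1r*, *Fcer1a*, *Epcam*, *Col1a1*, and *Pecam1*. The other 4 were *Cd3e*, *Ebf1*, *Krt18*, and *Pdgfra*. The *Cd3e* promoter held 2.35 to 5.25 CPM in the intestinal and 2.95 to 4.43 CPM in the other libraries, and *Krt18* 1.30 to 4.91 and 1.16 to 2.65 CPM. *Pdgfra* held 12 to 17.9 and 11.3 to 17.7 CPM. *Ebf1*, a B cell factor, held 15.7 CPM in SI replicate 1 and 2.2 to 7.24 CPM in the other 9 libraries. The part of these 4 promoters in the results was not tested, other than by leaving out SI replicate 1.

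Regions of the receptor genes that differed between intestinal and other tissues were mostly less accessible in the intestine, and those of *Hic1* were more accessible there. Differences were tested with the quasi-likelihood test of edgeR over all regions, and a region is called below where its p, adjusted by the method of Benjamini and Hochberg over all regions tested, was under 0.05. The test of any difference among the 5 tissues called 54 of the 76 (71.1%), against 44.2% of the 49981 regions tested. In the contrast of intestinal (mean of LI and SI) minus other tissues (mean of BM, lung, and pancreas), 20 of the 76 were lower in the intestine (26.3%, against 8.51% of all regions) and 13 were higher (17.1%, against 14.9%). The balance of calls in the listed regions was thus towards lower accessibility in the intestine, while in the whole table more regions were called higher. Their median log2 fold change was -0.20, against 0.00 over all regions. Because the genes were chosen with earlier results of these data known, these shares are a description. Without SI replicate 1, which had the highest *Ebf1* promoter level, 12 were higher and 17 were lower. The number higher fell to 8 without BM replicate 2 and also to 8 without pancreas replicate 1. The genes split by direction. *Hic1* had 6 of 8 regions higher and 0 lower. *Rara* had 0 higher and 7 of 16 lower, *Rarg* 0 and 3 of 5, *Rarb* 0 and 1 of 4, and *Rxra* 1 and 5 of 10. *Dhrs3* had 5 of 23 higher and 4 lower, *Cyp26b1* had 1 of 7 higher and 0 lower, and no region of *Rxrb* or *Crabp2* was called. By class, 5 of the 13 promoters were called (1 higher, 4 lower), 20 of the 50 intragenic regions (9 higher, 11 lower), and 8 of the 13 intergenic regions (3 higher, 5 lower). The shares called in each class over the whole table were not computed, so these counts do not compare the classes.

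**Figure D1:**
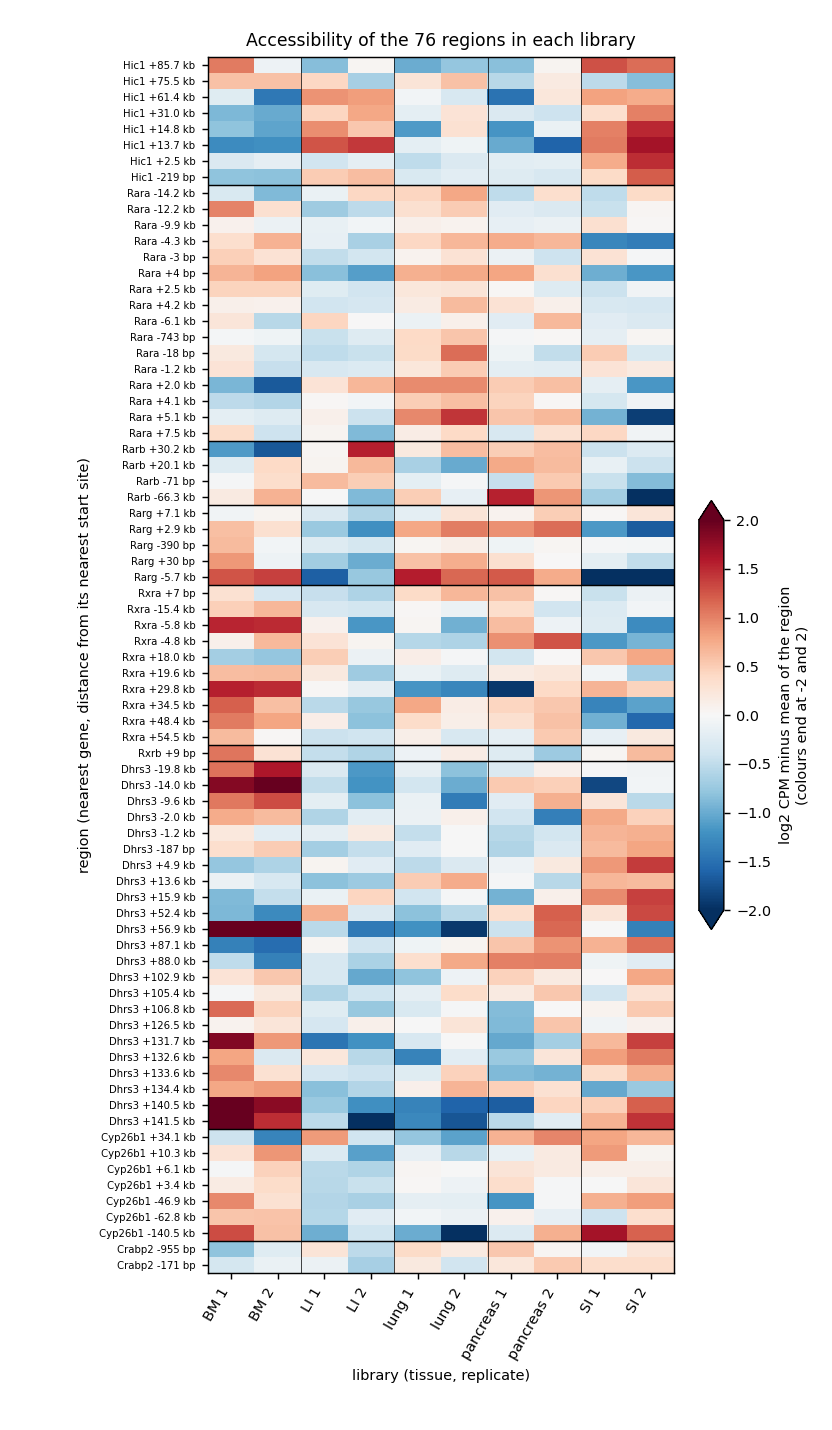
Log2 CPM of each of the 76 regions (rows, grouped by gene) in the 10 libraries (columns), after subtraction of the mean of the region. Most *Hic1* rows are red in the 4 intestinal columns, several *Rara* and *Rarg* rows are blue there, and a group of *Dhrs3* rows is red in the 2 BM columns.

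Of the receptor genes, *Rarg* held the region with the largest intestinal difference. It encodes RARγ, lies at chr15:102234938-102257522 on the minus strand, and has an upstream TSS and an internal TSS in intron 3. An intergenic region 5.7 kb upstream (chr15:102262993-102263505) held 26.2 and 28.4 CPM in BM, 32.7 and 24.5 in lung, 25.7 and 18.4 in pancreas, 3.49 and 6.43 in LI, and 2.50 and 1.46 in SI. The 4 intestinal libraries reached at most 6.43 CPM and the 6 others at least 18.4 CPM, so the groups did not overlap. The log2 fold change of intestinal minus other tissues was -3.03 ± 0.22 SE, adjusted p = 2.06e-07. SI and LI also differed from each other, with SI lower (LI minus SI 1.38 ± 0.34 SE, adjusted p = 0.0174). BM, lung, and pancreas did not differ beyond their spread, with the largest difference between lung and pancreas (0.37 ± 0.29 SE, adjusted p = 0.501). Among the 3 tissues that share a gate, LI was lower than lung (-2.49 ± 0.31 SE, adjusted p = 0.000164) and lower than pancreas (-2.12 ± 0.31 SE, adjusted p = 0.00189). This is the sequence printed first above, with 2 AGGTCA half-sites on opposite strands and an AP-1 match.

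A second region in intron 3 of *Rarg*, 2.9 kb downstream of the internal TSS (chr15:102243388-102243902), held 10.1 and 8.24 CPM in BM, 11.4 and 13.6 in lung, 12.5 and 14.4 in pancreas, 3.92 and 2.78 in LI, and 2.94 and 2.02 in SI. Again no intestinal library reached the lowest of the others. Its log2 fold change was -2.02 ± 0.20 SE, adjusted p = 3.46e-06, and LI and SI did not differ beyond their spread (LI minus SI 0.42 ± 0.31 SE, adjusted p = 0.426). The promoter at the upstream TSS (chr15:102257192-102257793) held 18.2 and 9.25 CPM in BM, 15.0 and 16.5 in lung, 12.5 and 10.0 in pancreas, 6.10 and 5.00 in LI, and 8.67 and 7.04 in SI. Its groups did not overlap either, although SI replicate 1 and BM replicate 2 were close, and the log2 fold change was -1.04 ± 0.20 SE, adjusted p = 0.00113. The internal promoter (chr15:102246162-102247619) held 76.2 and 47.5 CPM in BM, 50.5 and 53.1 in lung, 46.2 and 50.3 in pancreas, 41.1 and 38.6 in LI, and 48.4 and 47.9 in SI. There the groups overlapped and the difference missed the threshold (-0.29 ± 0.14 SE, adjusted p = 0.134), except without BM replicate 2 (-0.39, adjusted p = 0.0303). A region over coding exon 8 (*Rarg* +7.1 kb) gave -0.27 ± 0.20 SE, adjusted p = 0.352. Summed over the 5 regions, *Rarg* held 56.4 to 68.1 CPM in the intestinal libraries and 99.0 to 136 CPM in the others.

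*Rara*, which encodes a widely expressed RAR, also had promoters that differed from each other in the intestinal contrast. The gene lies at chr11:98937696-98974942 on the plus strand, and 4 of its 16 regions were promoters of alternative TSSs. The region at the second TSS, in intron 1 (chr11:98939460-98939970), held 47.1 and 51.2 CPM in BM, 48.4 and 50.0 in lung, 50.8 and 36.9 in pancreas, 16.5 and 13.6 in LI, and 14.8 and 13.1 in SI. All 4 intestinal libraries lay at or under 16.5 CPM and the 6 others at or above 36.9 CPM. The log2 fold change was -1.71 ± 0.14 SE, adjusted p = 6.25e-07, and LI minus SI was 0.10 ± 0.21 SE, adjusted p = 0.809. The promoter at the most upstream TSS (chr11:98937357-98938074), within its first exon, held 62.4 and 55.1 CPM in BM, 47.4 and 55.0 in lung, 41.3 and 33.8 in pancreas, 32.1 and 34.9 in LI, and 55.0 and 44.2 in SI. Its groups overlapped (-0.25 ± 0.13 SE, adjusted p = 0.174), although it differed among tissues at an adjusted p of 0.0133. At the same downstream TSS in intron 2, *Rara* -743 bp gave -0.35 ± 0.12 SE, adjusted p = 0.0427 and *Rara* -18 bp gave -0.32 ± 0.20 SE, adjusted p = 0.281. Both were higher in lung than in each other tissue by the rule on single tissues given below.

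The intergenic region 4.3 kb upstream of *Rara* (chr11:98933129-98933671) held 35.8 and 45.7 CPM in BM, 37.6 and 44.9 in lung, 47.4 and 45.1 in pancreas, 25.3 and 18.0 in LI, and 11.4 and 10.9 in SI. No library of the intestine overlapped with the others, and SI was lower than LI. Intestinal minus other tissues was -1.46 ± 0.14 SE, adjusted p = 3.52e-06, and LI minus SI was 0.95 ± 0.22 SE, adjusted p = 0.0127. Its printed sequence has 1 AGGTCA and 2 AP-1 matches. In intron 4, *Rara* +5.1 kb held 3.47 and 3.31 CPM in BM, 7.84 and 10.9 in lung, 5.89 and 6.25 in pancreas, 4.27 and 2.91 in LI, and 2.02 and 1.01 in SI. SI was lowest there and lung highest, LI overlapped with BM, and the log2 fold change was -1.33 ± 0.24 SE, adjusted p = 0.000705. Smaller differences were found at *Rara* -12.2 kb (-0.68 ± 0.18 SE, adjusted p = 0.00908) and at 2 regions of intron 1, *Rara* +4.2 kb (-0.58 ± 0.12 SE, adjusted p = 0.00218) and *Rara* +2.5 kb (-0.47 ± 0.12 SE, adjusted p = 0.00828). The latter was the region with the most reads of all 76, at 69.6 to 88.7 CPM in the intestinal and 78.5 to 127 CPM in the other libraries. The other 7 regions of *Rara*, not named above and not promoters, ranged from -0.20 to 0.10 in log2 fold change. None of them was called in the intestinal contrast. Among tissues, *Rara* +2.0 kb (adjusted p = 0.000441) and *Rara* +4.1 kb (adjusted p = 0.0101) differed. The former held a mean of 2.58 CPM in BM, 12.1 in lung, 9.19 in pancreas, 8.74 in LI, and 4.10 in SI.

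**Figure D2:**
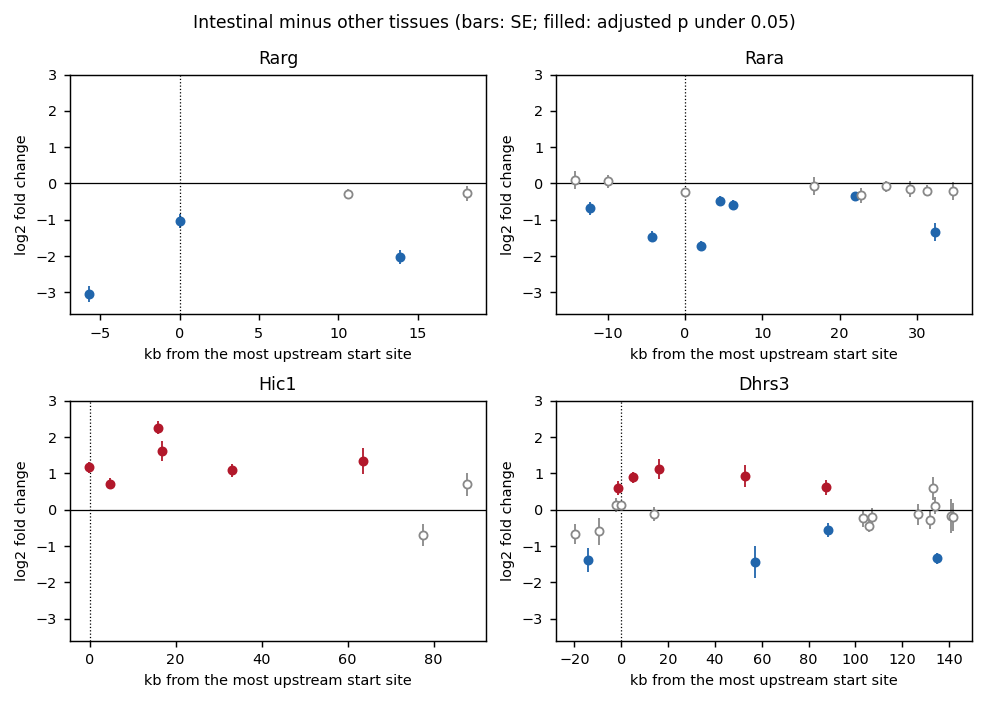
Log2 fold change of intestinal minus other tissues (vertical axis, bars are SE) against the distance in kb from the most upstream TSS (horizontal axis, downstream to the right) for the regions of *Rarg*, *Rara*, *Hic1*, and *Dhrs3*. Filled points passed an adjusted p under 0.05, and they are all negative for *Rarg* and *Rara*, all positive for *Hic1*, and of both signs for *Dhrs3*.

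*Rarb*, itself a classical target of retinoic acid, had 4 regions with 478 to 957 reads each over all libraries. The gene lies at chr14:16430839-17082331 on the minus strand, and its region at the internal TSS (chr14:16575297-16575797) held 2.98 and 3.91 CPM in BM, 2.67 and 3.01 in lung, 2.18 and 4.42 in pancreas, 4.79 and 4.34 in LI, and 2.21 and 1.64 in SI. The groups overlapped (-0.10 ± 0.26 SE, adjusted p = 0.834). The DR5 printed above lies in this region. Of the 3 intronic regions, *Rarb* -66.3 kb was lower in the intestine, with 2.30 and 3.31 CPM in BM, 2.86 and 1.79 in lung, 6.01 and 3.77 in pancreas, 2.00 and 1.04 in LI, and 1.20 and 0.418 in SI and a log2 fold change of -1.56 ± 0.36 SE, adjusted p = 0.00431. LI replicate 1 and lung replicate 2 overlapped there. *Rarb* +30.2 kb was lowest in BM, with 1.42 and 0.920 CPM in BM, 3.69 and 4.97 in lung, 4.53 and 4.96 in pancreas, 3.31 and 9.64 in LI, and 2.36 and 2.65 in SI. LI replicate 2 stood well above LI replicate 1, and BM minus lung was -1.89 ± 0.46 SE, adjusted p = 0.0077. Its intestinal contrast was not called (0.50 ± 0.28 SE, adjusted p = 0.222), passed without LI replicate 1 (0.77, adjusted p = 0.0392), and changed sign without LI replicate 2 (-0.01, adjusted p = 0.984). *Rarb* +20.1 kb differed among tissues (adjusted p = 0.0105) and was not called in the intestinal contrast (0.06 ± 0.22 SE, adjusted p = 0.873).

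The RXRs pair with the RARs and also with other nuclear receptors. *Rxra* lies at chr2:27677201-27763319 on the plus strand, and its 10 regions held 470 to 1411 reads over all libraries. The leading region, in intron 4 (chr2:27744855-27745390), held 10.3 and 6.81 CPM in BM, 7.72 and 4.97 in lung, 6.07 and 6.58 in pancreas, 3.05 and 2.61 in LI, and 1.73 and 2.09 in SI. The intestinal libraries were all lower than the others, with a log2 fold change of -1.59 ± 0.23 SE, adjusted p = 8.7e-05. *Rxra* +48.4 kb in intron 9 was lower as well (-1.39 ± 0.31 SE, adjusted p = 0.0035), with LI replicate 1 just above lung replicate 2. The promoter (chr2:27676958-27677458) held 4.21 and 2.67 CPM in BM, 4.43 and 5.41 in lung, 5.12 and 3.45 in pancreas, 2.44 and 2.17 in LI, and 2.46 and 3.10 in SI, and its groups overlapped (-0.73 ± 0.25 SE, adjusted p = 0.0405). *Rxra* -5.8 kb (-1.11 ± 0.36 SE, adjusted p = 0.0331) and *Rxra* -4.8 kb (-0.76 ± 0.24 SE, adjusted p = 0.0307) also passed. These 3 calls sat close to the threshold. *Rxra* +7 bp lost its call (adjusted p 0.0533 to 0.122) when BM replicate 1, either LI library, SI replicate 1, either lung library, or pancreas replicate 1 was left out. Removal of the trends with GC content and width also ended it (-0.59, adjusted p = 0.0764), and GC makes up 79.6% of the bases of this region. *Rxra* -4.8 kb lost it (0.0512 to 0.0977) without BM replicate 2, either LI library, SI replicate 1, either lung library, or pancreas replicate 2. *Rxra* -5.8 kb lost it (0.0716 to 0.156) without either BM library, LI replicate 2, SI replicate 2, lung replicate 1, or pancreas replicate 1. *Rxra* -5.8 kb was chiefly a BM region, at 5.82 and 5.71 CPM in BM and at most 3.06 CPM elsewhere. *Rxra* -4.8 kb was highest in pancreas, at 5.77 and 7.33 CPM, and lowest in SI, at 1.30 and 1.53 CPM. *Rxra* +29.8 kb was highest in BM, with 13.5 and 13.0 CPM in BM, 1.96 and 1.79 in lung, 1.12 and 6.04 in pancreas, 4.62 and 4.0 in LI, and 7.32 and 6.24 in SI. It was not called in the intestinal contrast (0.30 ± 0.29 SE, adjusted p = 0.508) except without pancreas replicate 2 (0.83, adjusted p = 0.0109), and BM minus lung was 2.82 ± 0.47 SE, adjusted p = 0.000463. *Rxra* +18.0 kb was the only *Rxra* region called higher in the intestine (0.74 ± 0.23 SE, adjusted p = 0.0244). The single *Rxrb* region, its promoter (chr17:34031501-34032141), held 74.8 and 43.7 CPM in BM, 33.2 and 39.7 in lung, 30.0 and 21.5 in pancreas, 25.6 and 23.5 in LI, and 36.5 and 55.7 in SI. BM and SI were higher than LI and pancreas, so that the tissues differed (adjusted p = 0.00317) while the intestinal contrast was not called (-0.18 ± 0.17 SE, adjusted p = 0.485).

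*Hic1* was the gene with the most regions of higher accessibility in the intestine in proportion to its number. It lies at chr11:75164565-75170255 on the minus strand, and 6 of its 8 regions lie downstream of it in introns 13 and 15 of the neighbouring gene *Smg6*. The region 13.7 kb downstream of the nearest *Hic1* TSS, in intron 15 of *Smg6* (chr11:75154144-75154676), held 3.72 and 3.82 CPM in BM, 7.84 and 8.47 in lung, 4.42 and 2.91 in pancreas, 21.6 and 24.1 in LI, and 18.7 and 28.8 in SI. Every intestinal library exceeded every other library by more than 2 times. The log2 fold change was 2.26 ± 0.17 SE, adjusted p = 3.05e-07, and LI and SI did not differ beyond their spread (-0.05 ± 0.25 SE, adjusted p = 0.92). Lung was intermediate and exceeded pancreas (1.12 ± 0.29 SE, adjusted p = 0.0298) and BM (BM minus lung -1.11 ± 0.28 SE, adjusted p = 0.00861). Within the shared gate, LI minus lung was 1.49 ± 0.26 SE, adjusted p = 0.0018, and LI minus pancreas was 2.61 ± 0.29 SE, adjusted p = 0.000249.

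The *Hic1* promoter (chr11:75170216-75170733) held 28.9 and 28.5 CPM in BM, 40.9 and 43.8 in lung, 42.6 and 40.7 in pancreas, 72.0 and 77.8 in LI, and 66.1 and 118 in SI. The 4 intestinal libraries were the highest 4, at 66.1 CPM or more against 43.8 CPM or less, and the SI replicates differed most. The log2 fold change was 1.17 ± 0.14 SE, adjusted p = 2.23e-05. LI exceeded lung (0.82 ± 0.22 SE, adjusted p = 0.0257), while LI minus pancreas missed the threshold (0.85 ± 0.23 SE, adjusted p = 0.0512). BM was lower than each other tissue by the rule on single tissues. *Hic1* +31.0 kb, the region with 3 successive half-sites (chr11:75136804-75137541), held 6.95 and 6.44 CPM in BM, 11.4 and 15.8 in lung, 10.7 and 9.81 in pancreas, 17.6 and 22.3 in LI, and 16.5 and 26.3 in SI. Its groups did not overlap, but SI replicate 1 and lung replicate 2 were near each other, and the log2 fold change was 1.08 ± 0.17 SE, adjusted p = 0.000196. At *Hic1* +14.8 kb the difference was 1.63 ± 0.27 SE, adjusted p = 0.000355, with 6.60 to 13.0 CPM in the intestinal and 1.94 to 5.6 CPM in the other libraries. At *Hic1* +61.4 kb it was 1.34 ± 0.36 SE, adjusted p = 0.0109, with 2.79 to 3.14 and 0.530 to 1.94 CPM, although its test over the 5 tissues missed the threshold (adjusted p = 0.0546). Within the shared gate, LI passed against neither lung nor pancreas at *Hic1* +31.0 kb, +14.8 kb, or +61.4 kb. In that order, LI minus lung was 0.55, 0.98, and 1.10 (adjusted p = 0.197, 0.153, and 0.221). LI minus pancreas was 0.96, 1.38, and 1.41 (adjusted p = 0.064, 0.120, and 0.255). In coding exon 2 of *Hic1* itself, *Hic1* +2.5 kb (chr11:75165263-75165954) differed in SI alone of the intestinal tissues. It held 10.8 and 11.7 CPM in BM, 9.25 and 10.8 in lung, 11.4 and 11.5 in pancreas, 10.1 and 11.6 in LI, and 22.2 and 36.7 in SI, LI minus SI was -1.43 ± 0.26 SE, adjusted p = 0.00243, and LI minus lung was 0.12 ± 0.26 SE, adjusted p = 0.812. The remaining 2 regions gave 0.70 ± 0.31 (*Hic1* +85.7 kb) and -0.69 ± 0.30 (*Hic1* +75.5 kb), neither of which passed. Summed over its 8 regions, *Hic1* held 138 to 232 CPM in the intestinal libraries and 59.0 to 90.8 CPM in the others.

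**Figure D3:**
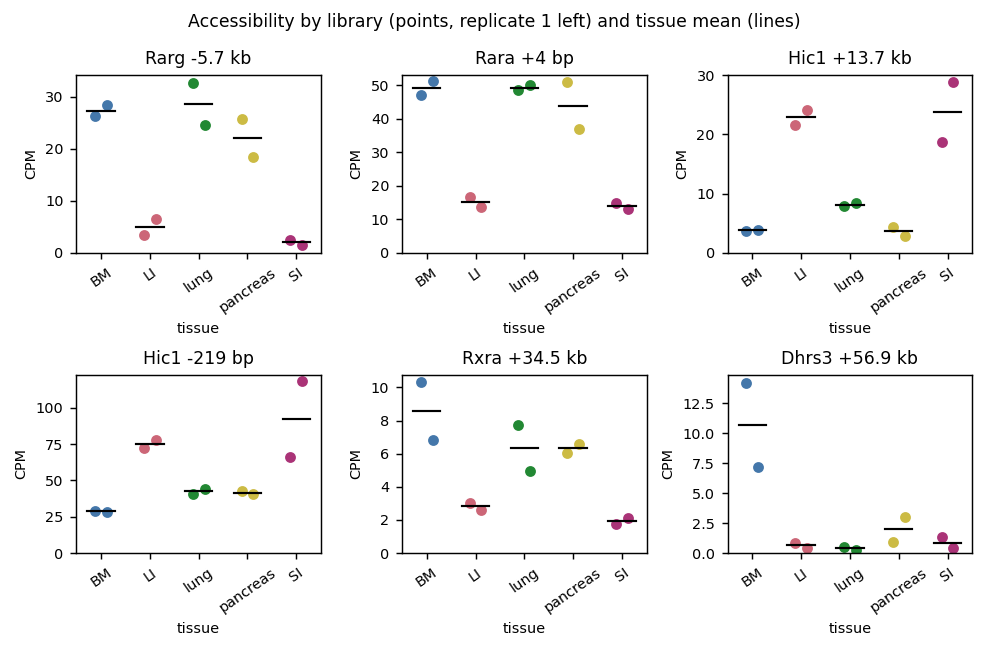
CPM of 6 regions (vertical axes, from 0) in the 2 libraries (points) of each tissue (horizontal axis), with tissue means as lines. LI and SI are low at *Rarg* -5.7 kb, *Rara* +4 bp, and *Rxra* +34.5 kb and high at *Hic1* +13.7 kb and *Hic1* -219 bp, and *Dhrs3* +56.9 kb is high in BM.

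*Dhrs3*, which encodes a retinaldehyde reductase, combined regions of opposite patterns. The gene lies at chr4:144892827-144928209 on the plus strand. Of its 23 regions, 3 lay inside it, and 12 of the distal ones lay in introns 65 to 68 of the neighbouring gene *Vps13d*. Its promoter (chr4:144892336-144892945) held 28.5 and 32.1 CPM in BM, 19.3 and 22.4 in lung, 14.8 and 18.6 in pancreas, 14.1 and 16.2 in LI, and 35.2 and 39.1 in SI. BM and SI were high and LI, lung, and pancreas were lower, so the intestinal contrast was near 0 (0.12 ± 0.13 SE, adjusted p = 0.569) although tissues differed (adjusted p = 0.000324) and LI was lower than SI (-1.29 ± 0.21 SE, adjusted p = 0.00124). In intron 2, *Dhrs3* +4.9 kb (chr4:144897671-144898443) held 8.32 and 9.25 CPM in BM, 9.88 and 11.6 in lung, 13.2 and 16.4 in pancreas, 14.8 and 12.2 in LI, and 26.1 and 37.6 in SI. Both SI libraries exceeded all 8 others, whereas LI lay within the range of lung and pancreas. The intestinal contrast was 0.89 ± 0.16 SE, adjusted p = 0.000512, and LI minus SI was -1.24 ± 0.24 SE, adjusted p = 0.00455. *Dhrs3* +15.9 kb (1.12 ± 0.27 SE, adjusted p = 0.00537) and *Dhrs3* -1.2 kb (0.59 ± 0.19 SE, adjusted p = 0.0319) were likewise highest in SI. The other 2 regions called higher in the intestine were lowest in BM and did not set LI apart from pancreas. *Dhrs3* +87.1 kb held 1.52 and 1.33 CPM in BM, 3.76 and 4.17 in lung, 5.89 and 7.55 in pancreas, 4.10 and 3.04 in LI, and 6.50 and 8.71 in SI. LI lay below pancreas and near lung there, SI was higher than LI (-1.11 ± 0.32 SE, adjusted p = 0.0402 for LI minus SI), and the intestinal contrast was 0.63 ± 0.21 SE, adjusted p = 0.0367. *Dhrs3* +52.4 kb held 1.22 and 0.920 CPM in BM, 1.29 and 1.57 in lung, 3.0 and 5.5 in pancreas, 3.92 and 1.91 in LI, and 2.84 and 6.03 in SI. The mean of pancreas exceeded that of LI, the replicates of LI and of SI differed, and the contrast was 0.93 ± 0.31 SE, adjusted p = 0.0392.

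A distal region in intron 65 of *Vps13d*, *Dhrs3* +134.4 kb (chr4:145027260-145027860), was lower in both intestinal tissues, with 28.4 and 30.0 CPM in BM, 17.8 and 26.4 in lung, 23.1 and 20.4 in pancreas, 9.24 and 10.9 in LI, and 8.09 and 9.89 in SI. The intestinal and other libraries did not overlap, and the log2 fold change was -1.34 ± 0.16 SE, adjusted p = 1.82e-05. *Dhrs3* +88.0 kb, which also passed as lower (-0.56 ± 0.19 SE, adjusted p = 0.0442), was highest in pancreas and lung, with 5.72 and 3.13 CPM in BM, 10.4 and 13.9 in lung, 16.5 and 16.7 in pancreas, 6.54 and 5.26 in LI, and 7.66 and 6.93 in SI. BM had a lower mean than either intestinal tissue there. Other *Dhrs3* regions were marked by BM. *Dhrs3* +56.9 kb (chr4:144949835-144950335) held 14.2 and 7.22 CPM in BM, 0.510 and 0.276 in lung, 0.942 and 3.02 in pancreas, 0.872 and 0.434 in LI, and 1.30 and 0.453 in SI. Both BM libraries exceeded the rest, though they differed from each other, and BM minus LI was 4.12 ± 0.65 SE, adjusted p = 0.000252. At *Dhrs3* -14.0 kb the BM libraries held 9.54 and 11.3 CPM and the others 0.674 to 3.77 CPM (BM minus SI 2.67 ± 0.47 SE, adjusted p = 0.000661). These 2 regions passed the intestinal contrast as lower (-1.45 ± 0.44 SE, adjusted p = 0.0231, and -1.39 ± 0.32 SE, adjusted p = 0.00474), but lung was as low as the intestine at both. The first call was lost (adjusted p 0.0595 to 0.116) without BM replicate 1, LI replicate 2, SI replicate 2, lung replicate 1, or pancreas replicate 2. *Dhrs3* +141.5 kb and +140.5 kb were high in BM and next in SI. *Dhrs3* +141.5 kb held 12.3 and 4.79 CPM in BM, 0.627 and 0.442 in lung, 1.12 and 1.40 in pancreas, 1.13 and 0.304 in LI, and 2.74 and 4.67 in SI, and BM minus SI did not pass the adjusted threshold (1.20 ± 0.50 SE, adjusted p = 0.0879). *Dhrs3* +133.6 kb, which holds a DR5 match, differed among tissues (adjusted p = 0.00803) and was not called in the intestinal contrast (0.11 ± 0.23 SE, adjusted p = 0.765).

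*Cyp26b1*, which encodes a retinoic acid hydroxylase, lies at chr6:84571414-84593908 on the minus strand and had no promoter region in the table. Of its 7 regions, 3 were intronic and 3 lay in intron 20 of the neighbouring gene *Exoc6b*. Only *Cyp26b1* +34.1 kb (chr6:84559494-84560022) passed the intestinal contrast, with 2.50 and 1.29 CPM in BM, 1.92 and 1.55 in lung, 5.48 and 6.69 in pancreas, 6.10 and 2.52 in LI, and 5.87 and 5.36 in SI. It was as high in pancreas as in SI, LI replicates differed, and the difference (0.84 ± 0.27 SE, adjusted p = 0.0318) was lost without LI replicate 1 (0.48, adjusted p = 0.27). It was also lost without BM replicate 2, SI replicate 1, lung replicate 2, or pancreas replicate 1 (adjusted p 0.0628 to 0.0927). The intronic regions *Cyp26b1* +3.4 kb, +6.1 kb, and +10.3 kb gave -0.33, -0.39, and -0.18 and did not pass. *Crabp2* had 2 promoter regions and no other. The one nearer to its TSS (chr3:87948234-87948811) held 2.89 and 3.36 CPM in BM, 4.27 and 2.81 in lung, 4.36 and 5.39 in pancreas, 3.40 and 2.30 in LI, and 4.77 and 4.77 in SI, with overlapping groups and a log2 fold change of -0.04 ± 0.23 SE, adjusted p = 0.92. The other gave -0.04 ± 0.26 SE, adjusted p = 0.929. No difference among tissues was detectable at either, at a total of 678 and 795 reads.

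Per kb of region, so that promoters can be compared with each other, the mean at the *Hic1* promoter was 55.6 CPM per kb in BM, 82.0 in lung, 80.5 in pancreas, 145 in LI, and 178 in SI. Its mean was the highest of the 13 promoters in LI and in SI, whereas in BM 4 promoters had higher means (*Rara* +4 bp, *Rxrb* +9 bp, *Rara* -3 bp, and *Rara* -743 bp). The *Rara* promoter at the second TSS held 96.4 CPM per kb in BM, 96.4 in lung, 86.0 in pancreas, 29.5 in LI, and 27.4 in SI, and the *Rara* promoter at the most upstream TSS 82.0 CPM per kb in BM, 71.4 in lung, 52.3 in pancreas, 46.7 in LI, and 69.1 in SI. The internal *Rarg* promoter held 42.4 CPM per kb in BM, 35.5 in lung, 33.1 in pancreas, 27.3 in LI, and 33.0 in SI and the upstream one 22.9 CPM per kb in BM, 26.2 in lung, 18.7 in pancreas, 9.23 in LI, and 13.1 in SI. Promoters of *Rarb*, *Rxra*, and *Crabp2* stayed under 10 CPM per kb in every tissue mean.

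**Figure D4:**
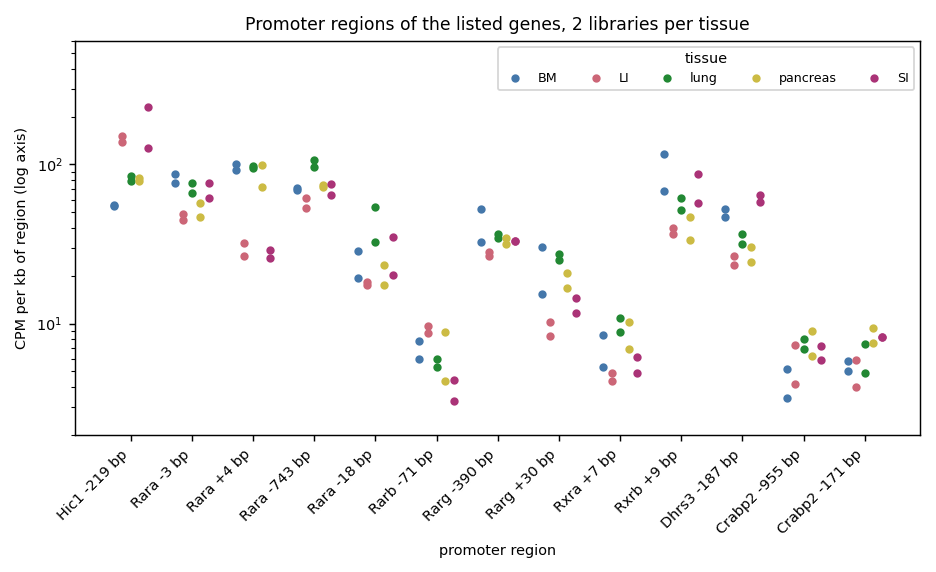
CPM per kb (log axis) of the 13 promoter regions (horizontal axis) in each library, coloured by tissue. LI and SI points lie above the others at the *Hic1* promoter, below them at *Rara* +4 bp and *Rarg* +30 bp, and among them at *Rara* -3 bp and *Crabp2* -171 bp.

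Between single pairs of tissues, the listed regions differed most often in pairs with BM and between SI and lung or pancreas, and so did all regions. BM and LI differed at 42 of the 76 regions (55.3%, against 30.9% of all regions), with BM higher at 33. BM differed from SI at 29 (38.2%, against 25.8%), from pancreas at 24 (31.6%, against 24.2%), and from lung at 23 (30.3%, against 19.0%). SI differed from lung at 31 (40.8%, against 21.0%) and from pancreas at 29 (38.2%, against 20.5%). LI differed from lung at 17 (22.4%, against 10.9%), with LI lower at 14, and from pancreas at 7 (9.21%, against 3.27%), with LI lower at 6. Lung and pancreas differed at 4 (5.26%, against 5.82%). Directions were counted for the listed regions only. These contrasts share libraries and are not independent. LI and SI differed at 11 (14.5%, against 8.44%). SI was lower than LI at 2 of these, *Rarg* -5.7 kb and *Rara* -4.3 kb, and higher at the other 9. The 9 were *Hic1* +2.5 kb, *Rxrb* +9 bp, *Cyp26b1* -46.9 kb, and 6 regions of *Dhrs3* (-187 bp, +4.9 kb, +13.6 kb, +87.1 kb, +131.7 kb, and +141.5 kb).

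A rule modelled on the tissue-specific regions of the study was applied to the edgeR contrasts, with accessibility above that of every other tissue at an unadjusted p under 0.05 in all 4 contrasts. By it, 13 of the 76 qualified (17.1%, against 11.3% of all regions). BM held 7 of them, at *Dhrs3* -19.8 kb, -14.0 kb, +56.9 kb, +140.5 kb, and +141.5 kb and at *Rxra* -5.8 kb and +29.8 kb. SI held 4, at *Dhrs3* -1.2 kb, +4.9 kb, and +15.9 kb and at *Hic1* +2.5 kb, and lung held 2, at *Rara* -743 bp and -18 bp. With adjusted p-values, 5 qualified (6.58%, against 3.42%), and these were *Hic1* +2.5 kb and 4 *Dhrs3* regions. In the opposite direction, 8 regions were lower in 1 tissue than in each other (10.5%, against 12.7%). These were BM at *Hic1* -219 bp, *Hic1* +31.0 kb, *Rarb* +30.2 kb, and *Dhrs3* +87.1 kb, SI at *Rarg* -5.7 kb, *Rara* -4.3 kb, and *Rara* +5.1 kb, and LI at *Cyp26b1* +6.1 kb. Where LI and SI each had to differ from BM, lung, and pancreas in the same direction, with an unadjusted p under 0.05 in each of the 6 contrasts, 4 regions were higher (5.26%, against 2.18% of all regions), all of *Hic1* (-219 bp, +13.7 kb, +14.8 kb, and +31.0 kb). By the same unadjusted rule 7 were lower (9.21%, against 0.874%), at *Rarg* -5.7 kb and +2.9 kb, *Rara* -4.3 kb, +4 bp, and +4.2 kb, *Rxra* +34.5 kb, and *Dhrs3* +134.4 kb.

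Other genes of the pathway were counted by the same position rule, and each list is read against the 14.9% of all regions called higher and the 8.51% called lower in the intestine. For uptake, storage, and synthesis of retinoids, 7 of 14 genes had a region, 9 regions in all, of which 4 were higher in the intestine (44.4%) and 0 lower. The 4 were both regions of *Dhrs9*, a retinol dehydrogenase, and both of *Adh1*, an alcohol dehydrogenase. The *Dhrs9* promoter held a mean of 9.51 CPM in BM, 9.78 in lung, 25.1 in pancreas, 26.1 in LI, and 19.9 in SI (0.78 ± 0.17 SE, adjusted p = 0.00257), and *Adh1* -0.34 kb 3.44 CPM in BM, 2.26 in lung, 4.39 in pancreas, 4.4 in LI, and 6.34 in SI (0.70 ± 0.20 SE, adjusted p = 0.0163). The region of *Bco1* (-0.31 ± 0.26 SE, adjusted p = 0.434) did not pass. *Stra6*, *Lrat*, *Rdh10*, *Aldh1a1*, and *Aldh1a3* were among the 7 genes with no region. For binding and clearance, 10 regions of 3 genes gave 2 higher and 2 lower (20% each). The single regions nearest to *Cyp26a1* (1.50 ± 0.39 SE, adjusted p = 0.00878) and *Cyp26c1* (2.1 ± 0.25 SE, adjusted p = 2.08e-05), both hydroxylases of retinoic acid, were higher. The one nearest to *Cyp26c1* lies in an intron of *Exoc6* and held 1.09 CPM in BM, 1.58 in lung, 1.63 in pancreas, 6.88 in LI, and 5.5 in SI. The 2 lower regions were of *Fabp5*, a fatty acid and retinoic acid carrier, whose leading region gave -0.59 ± 0.17 SE, adjusted p = 0.0204. That region held 21.2 CPM in BM, 7.03 in lung, 21.3 in pancreas, 11.8 in LI, and 8.08 in SI, so lung was lowest.

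Coregulators had 99 regions at 9 genes, with 21 higher in the intestine (21.2%, against 14.9% of all regions) and 9 lower (9.09%, against 8.51%). *Ncoa2*, a coactivator, had 9 of 26 regions higher and 0 lower, and its leading region, 8.67 kb upstream, held 2.47 CPM in BM, 3.97 in lung, 5.83 in pancreas, 9.12 in LI, and 21.6 in SI (1.87 ± 0.17 SE, adjusted p = 2.13e-06). *Nrip1*, which is itself induced by retinoic acid and represses the receptors, had 6 of 25 higher and 2 lower (leading region 1.38 ± 0.18 SE, adjusted p = 4.39e-05). That *Nrip1* region held a mean of 2.438 CPM in BM, 7.201 in lung, 12.85 in pancreas, 10.77 in LI, and 23.04 in SI. SI was highest and BM lowest there, and the mean of pancreas exceeded that of LI. The leading region inside *Ncoa1* was a BM region, with 6.89 CPM in BM, 0.114 in lung, 0.775 in pancreas, 0.631 in LI, and 0.179 in SI, and did not pass (-1.40 ± 0.56 SE, adjusted p = 0.0844). RXR partners had 36 regions at 7 genes, with 5 higher and 5 lower (13.9% each), a share of higher regions near that of the whole table. *Ppard* held 4 of the 5 higher ones (leading region 2.09 ± 0.33 SE, adjusted p = 0.000232), and *Vdr* 1 higher and 2 lower (leading region -0.77 ± 0.19 SE, adjusted p = 0.00768). The *Vdr* region held 2.45 CPM in BM, 10.97 in lung, 5.86 in pancreas, 5.09 in LI, and 1.99 in SI. Lung was highest there, and BM was near SI. The leading regions of *Rxrg* (-0.30 ± 0.14 SE, adjusted p = 0.132) and *Thrb* (-0.34 ± 0.30 SE, adjusted p = 0.451) did not pass, although 1 other region of *Rxrg* and 2 of *Thrb* were called lower. Retinoid-responsive genes of lymphocytes had 47 regions at 5 of 6 genes, with 14 higher (29.8%) and 8 lower (17.0%). *Tgm2* had 5 of 8 higher and 0 lower (leading region 2.03 ± 0.33 SE, adjusted p = 0.000309). That region held a mean of 1.43 CPM in BM, 0.279 in lung, 1.8 in pancreas, 1.98 in LI, and 6.34 in SI. SI alone stood apart there, with LI near pancreas. *Itga4*, the α4 chain of the gut-homing integrin, had 7 of 28 higher and 4 lower (leading region 2.05 ± 0.26 SE, adjusted p = 3.22e-05), and *Itgb7*, its β7 partner, 1 and 1 of 4 (leading region -0.95 ± 0.15 SE, adjusted p = 0.00024). That *Itgb7* region held 34.7 CPM in BM, 40.7 in lung, 20.8 in pancreas, 15.4 in LI, and 16.5 in SI. BM and lung stood apart there, and pancreas overlapped with SI. *Ccr9*, the gut-homing chemokine receptor, had 0 of 4 higher and 2 lower. Its leading region, 10.3 kb upstream, held 30.5 CPM in BM, 15.0 in lung, 9.33 in pancreas, 5.31 in LI, and 7.57 in SI (-1.38 ± 0.19 SE, adjusted p = 6.39e-05). Median log2 fold changes of the 5 lists, in this order, were 0.35, -0.02, 0.08, -0.09, and 0.22, against 0.00 over all regions.

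Regions with a profile most like that of the leading *Hic1* and *Rarg* regions were sought by the Pearson correlation of log2 CPM over the 10 libraries, among regions that differed among tissues and belonged to other genes. For *Hic1* +13.7 kb, the 5 closest had their nearest TSS at *Gm15232*, *Lmnb1*, *Erbin*, *Pfkp*, and *Crtc3*, with r from 0.973 to 0.992. For *Rarg* -5.7 kb they were at *Acsl4*, *9430078K24Rik*, *Shank2*, *Mir7661*, and *Ddr1*, with r from 0.981 to 0.991. The points are libraries in 5 pairs of replicates, and the closest of so many regions is high by selection, so the values are a description.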

How the data were processed

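ATAC-seq maps open chromatin by insertion of a transposase. The authors deposited raw counts of reads per merged region for 10 libraries (unit: counts). Per their methods and the submitters' processing notes, reads were checked with FastQC 0.11.9, aligned to mm10 with Bowtie2 2.2.9, and filtered with SAMtools 1.8. Only uniquely mapped reads were kept, peaks were called with MACS2 2.1.1 and retained where replicates shared them, merged with HOMER, and counted with bedtools, and DESeq2 was used for differences.

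Regions were assigned to genes by the curated transcripts of RefSeq GRCm38.p6, and all 9 genes were found. The 49981 of 50039 regions with at least 1 count were fitted with the quasi-likelihood method of edgeR 4.0.16 in R 4.3.3, with TMM scaling and tissue as the only factor, over all 10 libraries. Contrasts were the test of any difference, the mean of LI and SI minus the mean of BM, lung, and pancreas, and the 10 pairs of tissues. Standard errors (SE) are the absolute log2 fold change divided by the square root of the F statistic. P-values were adjusted over all regions by the Benjamini-Hochberg method at 0.05. The model was tested on simulated data. Those counts were drawn with the spread fitted to these libraries, and changes were planted only in regions with higher counts. Recovery at weak regions was therefore not covered. Total counts per library ranged from 10282987 to 32797872, and regions with few reads carry more counting error.

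The members, pathway lists, markers, and motifs were chosen with earlier results of these data known. Of each gene, the promoter with most counts, the region with the smallest p, and called regions in order of p were named, up to 6. Other regions singled out were chosen after their values were seen. Of each pathway list, the 4 genes with the lowest p were named, except that some items are not reported here. Replicate numbers were not taken to pair samples, since same-numbered libraries deviated together with correlations between -0.22 and 0.20. Alternatives were library size alone, the size factors of DESeq2 1.42.0, DESeq2 itself, a mean of at least 10 counts, a replicate block, removal of GC and width trends, other definitions, and each library left out in turn.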

Additional observations from a re-analysis of the deposited data

How the results depend on the processing

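Scaling by library size alone, DESeq2 size factors, DESeq2 itself, a mean of at least 10 counts, and removal of GC and width trends left the number of regions called for tissue differences at 54 to 60, against 54. In the same settings 10 to 13 regions were higher and 18 to 21 lower in the intestine, against 13 and 20. Of these settings, the mean of at least 10 counts gave the main values at every named region. It is counted among the 16 alternatives below but was no separate check. With replicate number as a block, 54 regions differed among tissues, 13 were higher, 21 lower, 225 pairwise calls were made against 217, and 13 regions were tissue-specific. With each library left out in turn, tissue calls ranged from 47 to 54, higher from 8 to 14, lower from 14 to 19, pairwise calls from 168 to 239, and tissue-specific regions from 10 to 14. A lone remaining library was assumed to vary like the other tissues. The lowest number of higher regions, 8, came without BM replicate 2 and without pancreas replicate 1. Where LI and SI each had to differ from BM, lung, and pancreas with an unadjusted p under 0.05, 4 were higher and 7 lower, and with adjusted p-values in each contrast 5 were tissue-specific. With only the 41 regions inside a listed gene or at its promoter, a choice made after seeing the data, 28 differed among tissues, 5 were higher, 13 lower, 103 pairwise calls were made, and 7 were tissue-specific. These counts are out of 41 and not 76 regions. The make-up of the set also changed, because the 6 *Hic1* regions in introns of *Smg6* were among those left out. Of the 25 named regions called in the intestinal contrast, none changed direction and 20 stayed past the threshold in all 16 alternatives. *Rxra* +7 bp lost the call in 8, *Rxra* -4.8 kb in 7, *Rxra* -5.8 kb in 6, and *Dhrs3* +56.9 kb and *Cyp26b1* +34.1 kb in 5 each. Among the 9 named regions that were not called, 4 changed sign when 1 library was left out. With each library left out in turn, *Rarb* -71 bp ranged from -0.25 to 0.091 (positive without SI replicate 2 and pancreas replicate 2), *Rarb* +30.2 kb from -0.013 to 0.77 (negative without LI replicate 2), *Dhrs3* +141.5 kb from -0.73 to 0.20 (positive without BM replicate 1 and LI replicate 2), and *Crabp2* -171 bp from -0.18 to 0.085 (positive without LI replicate 2, lung replicate 1, and pancreas replicate 2). *Rarg* -390 bp passed without BM replicate 2, *Rarb* +30.2 kb without LI replicate 1, and *Rxra* +29.8 kb without pancreas replicate 2. Regions described outside the naming rule were not recomputed singly. Depth limits the weakest regions, with 277 reads over 10 libraries at the lowest, and 2 pools per tissue leave few degrees of freedom.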
